A study of Mus musculus with 33 samples.

Results

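The AP-1 and Egr genes described here are 10 immediate early transcription factors of the mouse: the Fos family (Fos, Fosb, Fosl1 and Fosl2), the Jun family (Jun, Junb and Jund) and 3 members of the Egr family (Egr1, Egr2 and Egr3). They were chosen by name, are among 17982 genes with counts, and all 10 passed the filter on low counts that left 13438 genes to be tested. RNA sequencing with poly-A selection gave 3 libraries each of induced osteoblasts (iOB), calvarial osteoblasts (calvarial-OB) and fibroblasts. For iOB GFP+, the cells sorted out of iOB for their green fluorescence, a deposited table of fold changes against fibroblasts was used. The series holds 33 samples in all, and its sorted bone chip cells and 18 methylation libraries are not analysed here.

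The fibroblasts were tail tip cells of Col2.3GFP mice. In these mice a fragment of the type I collagen promoter drives green fluorescent protein in cells of the osteoblast lineage. The iOB were such fibroblasts after transduction with lentivirus carrying transcription factor genes that the labels do not name, followed by replating and a change to osteogenic medium. No group received the virus alone or the medium alone, so virus, replating and medium cannot be told apart in a comparison of iOB with fibroblasts. The calvarial-OB came from calvarial progenitor cells under osteoblast differentiation and carry the words dataset 2 in their titles, so a difference of dataset and a difference of cell type cannot be told apart. The age of the animals, any pooling and the interval between the last medium change and lysis are not given in the sources used here. Nothing in the labels says that replicates came from separate animals or cultures, so the p-values measure the spread between these libraries, which may be technical.

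Fos proteins cannot bind DNA alone. They pair with Jun proteins through leucine zippers to form AP-1, which binds the element TGACTCA in the regulatory regions of target genes, whereas Jun proteins can also pair with each other. Fos, Fosb, Jun, Junb and the zinc finger factors Egr1, Egr2 and Egr3 are switched on within minutes by growth factors, serum, stretch or cell handling, through MAP kinases and serum response factor (SRF), and their messages are short-lived. In mouse genetics, Fosl1 (Fra-1), Fosl2 (Fra-2), the Fosb splice form ΔFosB and Junb each influence bone formation, and loss of Fos stops the formation of osteoclasts.

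Promoter windows from RefSeq (build GRCm38.p6, 250 bases before to 50 bases after each annotated start) matched 7 of the 10 genes: Fos, Fosb, Fosl2, Jun, Junb, Jund and Egr2. Fos and Fosb are shown because they spread most between the fibroblast libraries in the values below, and Fosl2 because it moved opposite to them. Capitals mark TGACG, a half-site of the cyclic AMP response element, in Fos, and the Egr site GCGGGGGCG in Fosb and Fosl2. Each run is 5′ to 3′ on the strand of the gene.
Fos, chr12:85473790-85473889, plus strand: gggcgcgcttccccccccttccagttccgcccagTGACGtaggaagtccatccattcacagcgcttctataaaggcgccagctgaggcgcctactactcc
Fosb, chr7:19310046-19310145, minus strand: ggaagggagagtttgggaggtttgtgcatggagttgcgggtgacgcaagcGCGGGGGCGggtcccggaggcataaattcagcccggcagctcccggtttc
Fosl2, chr5:32136372-32136471, plus strand: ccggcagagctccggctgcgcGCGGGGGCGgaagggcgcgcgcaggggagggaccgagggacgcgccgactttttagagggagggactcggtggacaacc

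Egr2 has 5 annotated starts, and 4 of its windows hold the CArG box bound by SRF, written CC, then 6 of A or T, then GG. The 2 boxes are shown in capitals with their flanks, because SRF is the textbook regulator of this family.
Egr2 site 1, chr10:67537484-67537513, plus strand: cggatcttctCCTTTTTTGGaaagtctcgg
Egr2 site 2, chr10:67537787-67537816, plus strand: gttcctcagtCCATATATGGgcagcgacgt

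All motifs were searched on both strands. The CArG box stands in 1.63% of 32851 mouse promoter windows of the same length, and GCGGGGGCG in 2.91% of them. GCGGGGGCG begins 50 bases before the start of Fosb and 79 bases before that of Fosl2. TGACG was added after the sequences had been seen. It is shorter, lies within the full element TGACGTCA and occurs in 20.8% of windows; it begins 129 and 66 bases before the start of Fos, 60 before that of Fosb and 106 before that of Junb, and Egr2 windows hold it too. The AP-1 site TGACTCA (5.20% of windows), TGACGTCA (1.79%) and the other Egr site GCGTGGGCG (0.612%) are not in any of the 11 windows of these genes. A match of letters is a description, and shows no binding.

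Total counts were 5646299 to 8187715 in iOB, 8219411 to 15023771 in calvarial-OB and 7634593 to 13367273 in fibroblasts. Levels are counts scaled to a common library size (CPM), corrected with the TMM factors of edgeR. CPM is not corrected for gene length, so levels are compared between groups and not between genes. Of 8 osteoblast markers, all 8 were higher in iOB and in calvarial-OB than in fibroblasts (edgeR), and their summed level was 3193 to 3621 CPM in iOB, 3544 to 4311 CPM in calvarial-OB and 106 to 124 CPM in fibroblasts. Markers of other cells moved too. All 18 macrophage markers were higher in iOB than in fibroblasts, with summed levels of 2419 to 3920 CPM in iOB, 3915 to 7246 CPM in calvarial-OB and 46.0 to 92.7 CPM in fibroblasts. Summed adipocyte markers reached 286 to 342 CPM in iOB, 1138 to 1864 CPM in calvarial-OB and 131 to 144 CPM in fibroblasts. Endothelial markers lay between 2.94 and 13.2 CPM in all 9 libraries. Summed epithelial markers were scarce, but higher in iOB (1.66 to 3.60 CPM) and calvarial-OB (0.969 to 1.72 CPM) than in fibroblasts (0.142 to 0.283 CPM). Only 1 of the 6 listed had enough counts to be tested, so the sum may reflect 1 gene. In the authors' deposited table for iOB over fibroblasts, only Cdh1 was called higher, with a log2 fold change of 4.03. Krt18 (0.96) was not called, and Krt5 (-0.44), Krt8 (-0.49) and Epcam (-0.13) had negative values. Macrophages also express Fos, Jun and Egr genes, and the part of these other cells in the results below was not tested. In such bulk samples, fewer cells of a type and less RNA per cell cannot be told apart.

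The first comparison asks what AP-1 and Egr messages did after fibroblasts had been turned into iOB. In each of the 10 genes the 3 iOB libraries and the 3 fibroblast libraries did not overlap: 8 genes were higher in every iOB library and 2, Fosl1 and Fosl2, were lower in every one. Among all tested genes, 30.2% were higher and 32.8% lower without overlap. edgeR called 6 genes higher at an adjusted p below 0.05 (Fos, Fosb, Jund, Egr1, Egr2 and Egr3), against 22.7% of all tested genes, and 2 lower, against 20.6%. The median log2 fold change of the 10 genes was 1.20, and that of all tested genes was -0.036.

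Fos, whose message is a common marker of recent stimulation, was at 491, 634 and 373 CPM in iOB replicates 1 to 3, against 81.1, 237 and 29.1 CPM in the fibroblast replicates. The lowest iOB library lay above the highest fibroblast library, but the fibroblast libraries differed 8.13-fold among themselves. Its log2 fold change was 2.12 ± 0.64 (SE, n = 3 each; edgeR adjusted p = 0.018). Fosb, whose splice forms include ΔFosB, was at 389, 474 and 252 CPM in iOB, against 18.4, 75.6 and 4.40 CPM in fibroblasts. All iOB libraries were again above all fibroblast libraries, and the log2 fold change was 3.55 ± 0.97 (edgeR adjusted p = 0.011), with a 95% interval of 1.42 to 5.68. Fos was no longer called when fibroblast replicate 1 was left out (1.92, adjusted p = 0.064) or when iOB replicate 2 was (1.91, adjusted p = 0.053). The value was 3.22 without fibroblast replicate 2. Fosb was called in all 17 alternatives.

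The Fos-related antigens fell. Fosl2, which encodes Fra-2 and carries no transactivation domain like that of Fos, was at 248, 218 and 217 CPM in iOB, against 357, 358 and 363 CPM in fibroblasts. These fibroblast libraries differed by 1.02-fold, a tighter spread than in most tested genes, whose median was 1.19-fold. The log2 fold change of Fosl2 was -0.66 ± 0.16 (edgeR adjusted p = 0.0060), and the call held in all 17 alternatives. Fosl1, which encodes Fra-1, was scarce, at 3.3, 1.9 and 3.1 CPM in iOB, against 5.1, 5.0 and 6.1 CPM in fibroblasts. Those levels rest on 22, 17 and 19 counts in iOB and 54, 35 and 73 counts in fibroblasts. Its log2 fold change was -0.97 ± 0.33 (edgeR adjusted p = 0.031). The Fosl1 call was lost with DESeq2 (adjusted p = 0.055), without any 1 of the fibroblast replicates (adjusted p = 0.054 to 0.13), and without iOB replicate 2 (adjusted p = 0.14) or 3 (adjusted p = 0.060).

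Opposite movement within the family shows in the ratio of Fos to Fosl2 counts, which needs no scaling between libraries. It was 1.98, 2.91 and 1.72 in iOB replicates 1 to 3, 4.43, 1.64 and 3.61 in calvarial-OB, and 0.227, 0.661 and 0.0803 in fibroblasts. Every iOB and calvarial-OB library had more Fos than Fosl2 counts and every fibroblast library fewer. These ratios are of counts and are not corrected for gene length.

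**Figure D1:**
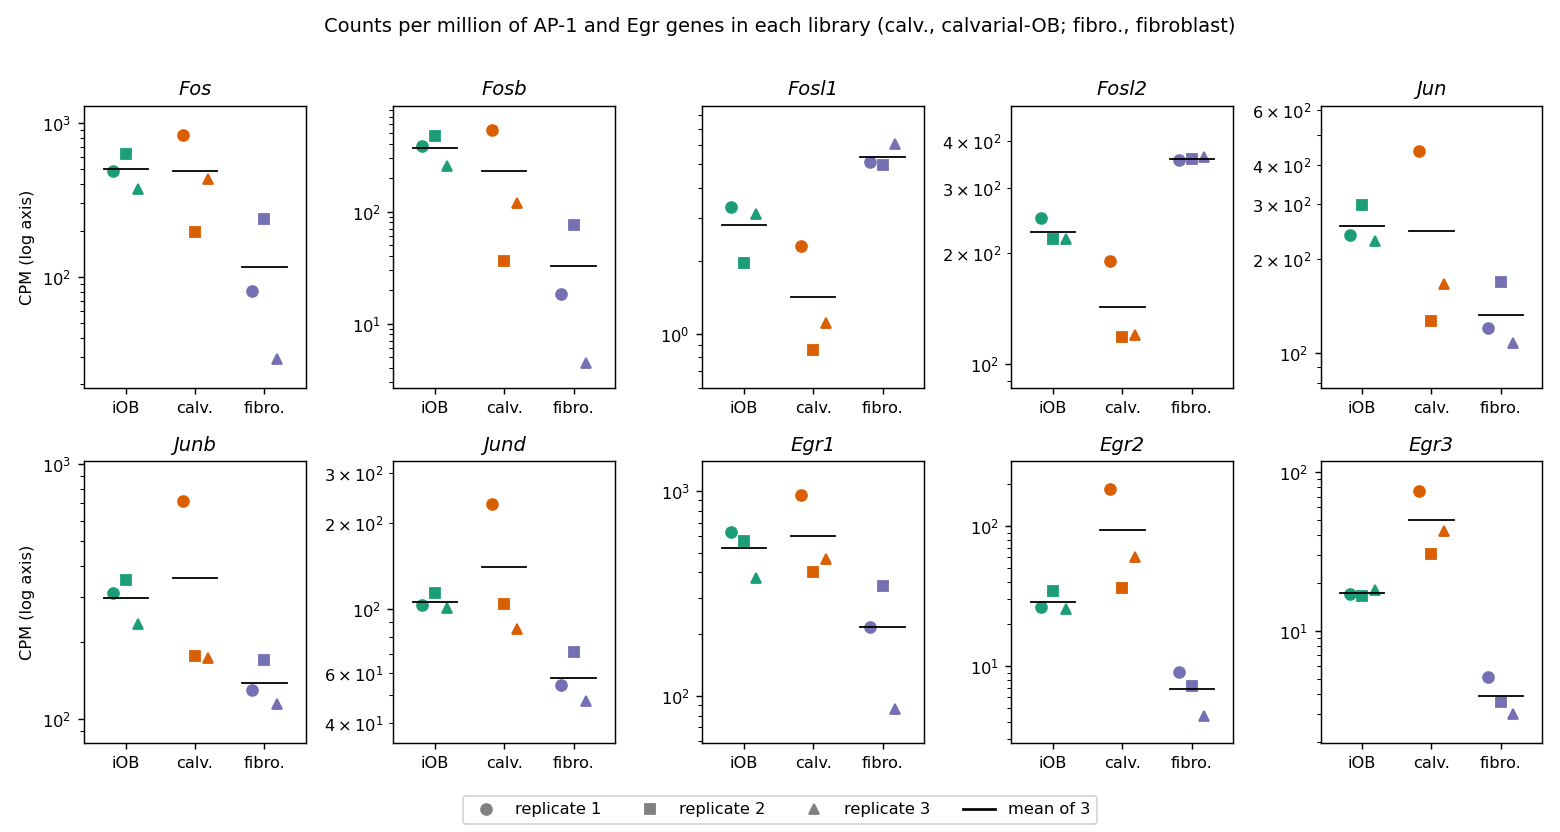
CPM on a log axis of each AP-1 and Egr gene in the 3 iOB, 3 calvarial-OB (calv.) and 3 fibroblast (fibro.) libraries, with symbols for the replicates and a line at the mean of 3; each panel has its own axis. Fosl1 and Fosl2 were lower in all iOB and calvarial-OB libraries than in fibroblasts, and calvarial-OB replicate 1 stands at the top of its group in all 10 panels.

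The Jun genes supply the partner of every Fos protein, and their log2 fold changes were below those of Fos and Fosb. Jund, the member that is least inducible and often restrains growth, was at 104, 114 and 101 CPM in iOB, against 54.4, 70.8 and 47.9 CPM in fibroblasts. The groups did not overlap, and the log2 fold change was 0.89 ± 0.30 (edgeR adjusted p = 0.033). Jun, the strongest activator of the family, was at 238, 298 and 229 CPM in iOB, against 120, 169 and 108 CPM in fibroblasts. Junb, which can oppose Jun and is needed for normal bone formation in mice, was at 313, 350 and 236 CPM in iOB, against 131, 170 and 115 CPM in fibroblasts. Neither pair of groups overlapped, but neither gene passed the threshold: the log2 fold change of Jun was 0.95 ± 0.37 (edgeR adjusted p = 0.055) and that of Junb 1.12 ± 0.45 (adjusted p = 0.063).

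The calls of the Jun genes changed with the libraries and the method used. With the calvarial-OB libraries left out of the fit, Jun differed by 1.00 log2 units (edgeR adjusted p = 5.6e-04) and Junb 1.16 (adjusted p = 2.5e-04), and both were also called without calvarial-OB replicate 1 or 2. Junb was called without calvarial-OB replicate 3 as well (adjusted p = 0.044). Jund was not called by DESeq2 (0.90, adjusted p = 0.071), nor without fibroblast replicate 1 (adjusted p = 0.087) or 3 (adjusted p = 0.12), nor without iOB replicate 1, 2 or 3 (adjusted p = 0.065, 0.086 and 0.063).

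All 3 Egr genes rose. Egr3, a target of Egr1 in several cell types, was at 17.1, 16.6 and 18 CPM in iOB, against 5.1, 3.5 and 3.0 CPM in fibroblasts. The iOB libraries agreed to within 1.08-fold, and the log2 fold change was 2.15 ± 0.34 (edgeR adjusted p = 3.0e-04). Egr2 (Krox20), whose loss impairs bone formation in mouse embryos, was at 26.5, 34.7 and 25.9 CPM in iOB, against 9.1, 7.2 and 4.4 CPM in fibroblasts. Its log2 fold change was 2.09 ± 0.54 (edgeR adjusted p = 0.0080). Egr2 and Egr3 were called in all 17 alternatives.

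Egr1, the founding member, was at 632, 568 and 374 CPM in iOB, against 217, 344 and 85.9 CPM in fibroblasts. The lowest iOB library was only slightly above the highest fibroblast library, and the log2 fold change was 1.29 ± 0.43 (edgeR adjusted p = 0.031). The call was lost with DESeq2 (1.31, adjusted p = 0.059), without fibroblast replicate 1 (1.29, adjusted p = 0.071) or 3 (0.94, adjusted p = 0.075), and without iOB replicate 1 (1.13, adjusted p = 0.091) or 2 (1.22, adjusted p = 0.074). Over the whole set, 3 genes were called higher without fibroblast replicate 1 or without iOB replicate 2, 4 without fibroblast replicate 3 or iOB replicate 1, and 8 with calvarial-OB replicate 1 and fibroblast replicate 3 both left out.

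The second comparison sets calvarial-OB against fibroblasts. edgeR called 7 of the 10 genes higher (28.4% of all tested genes) and 2 lower (27.4% of all tested genes), and the median log2 fold change was 1.43, against 0.017 over all tested genes. Without overlap, 5 genes were higher and 2 lower, against 30.2% and 30.3% of all tested genes. As in iOB, the 2 lower genes were Fosl1 and Fosl2.

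Egr2 and Egr3 had the largest log2 fold changes of the 10 genes in calvarial-OB over fibroblasts. Egr2 was at 186, 36.5 and 60.3 CPM in calvarial-OB replicates 1 to 3 and exceeded the fibroblast levels given above by 3.78 ± 0.54 log2 units (edgeR adjusted p = 9.0e-05). Egr3 was at 76.3, 30.5 and 42.5 CPM, with a log2 fold change of 3.68 ± 0.33 (adjusted p = 2.0e-06 by edgeR). Both groups of both genes were apart. Egr1 was at 951, 399.7 and 464 CPM, all above the fibroblast libraries, with a log2 fold change of 1.49 ± 0.43 (adjusted p = 0.012 by edgeR); with calvarial-OB replicate 1 and fibroblast replicate 3 both left out it was 0.62 (adjusted p = 0.048).

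Among the Fos genes, Fos was at 840, 194 and 433 CPM in calvarial-OB, where replicate 2 lay below the highest fibroblast library. The log2 fold change was 2.09 ± 0.64 (edgeR adjusted p = 0.015). Fosb was at 530, 35.9 and 118 CPM in calvarial-OB, a 14.8-fold range that overlapped the fibroblast range, and its log2 fold change was 2.84 ± 0.95 (edgeR adjusted p = 0.023). Fos was not called without fibroblast replicate 1 (1.89, adjusted p = 0.054), and its log2 fold change was 3.17 without fibroblast replicate 2. Fosb was not called without calvarial-OB replicate 1 (1.32, adjusted p = 0.14) or fibroblast replicate 1 (2.55, adjusted p = 0.078) or 3 (2.33, adjusted p = 0.065), and its log2 fold change was 4.36 without fibroblast replicate 2.

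Fosl2 was at 190, 119 and 120 CPM in calvarial-OB, every library below the fibroblasts, with a log2 fold change of -1.33 ± 0.16 (adjusted p = 2.8e-05 by edgeR). Fosl1 was at 2.3, 0.9 and 1.1 CPM in calvarial-OB, from 19, 7 and 17 counts, and also lay below every fibroblast library. Its log2 fold change was -1.95 ± 0.34 (edgeR adjusted p = 4.3e-04). Both calls held in all 17 alternatives.

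Jund was at 234, 104 and 85.3 CPM in calvarial-OB, above all fibroblast libraries, with a log2 fold change of 1.29 ± 0.30 (adjusted p = 0.0034 by edgeR); without calvarial-OB replicate 1 it was 0.71 (adjusted p = 0.0012). Junb was at 718, 177 and 174 CPM, of which the lowest value lay just above the highest fibroblast library. Its log2 fold change was 1.36 ± 0.45 (edgeR adjusted p = 0.022), but 0.33 (adjusted p = 0.12) without calvarial-OB replicate 1, and the call was also lost without fibroblast replicate 1 (adjusted p = 0.061) or 3 (adjusted p = 0.079). Jun was at 444, 127 and 166 CPM in calvarial-OB, overlapping the fibroblasts, and was not called (0.89 ± 0.37, edgeR adjusted p = 0.056). Without calvarial-OB replicate 2 or 3 it was called (1.24, adjusted p = 0.012, and 1.14, adjusted p = 0.038), and with calvarial-OB replicate 1 and fibroblast replicate 3 both left out its log2 fold change was 0.02. The genes called higher then numbered 4, and 5 without calvarial-OB replicate 1 alone.

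Set directly against calvarial-OB, iOB had more Fosl2 and less Egr2 and Egr3. edgeR called 2 genes higher in iOB (24.7% of all tested genes), Fosl2 and Fosl1, and 2 lower (24.1%), Egr2 and Egr3. Fosl2 was higher without overlap (28.1% of all tested genes), and Egr2 and Egr3 were lower without overlap (27.3%). The median log2 fold change of the 10 genes was -0.087, and that of all tested genes was -0.032.

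The log2 fold change of Fosl2 in iOB over calvarial-OB was 0.68 ± 0.16 (edgeR adjusted p = 0.0048), which places iOB between calvarial-OB and fibroblasts. Egr3 differed by -1.53 ± 0.28 (edgeR adjusted p = 9.6e-04) and Egr2 by -1.69 ± 0.47 (edgeR adjusted p = 0.011). For both, the iOB libraries lay between the other groups. The 3 calls held in all 17 alternatives, though Egr2 had a log2 fold change of -0.70 (adjusted p = 0.027) without calvarial-OB replicate 1. For Fosl1 the groups overlapped, and the difference of 0.98 ± 0.37 (edgeR adjusted p = 0.046) was called in 7 of 17 alternatives, with adjusted p between 0.0038 and 0.15. It was lost without any 1 of the fibroblast replicates (0.98 to 1.01), without calvarial-OB replicate 2 (0.78) or 3 (0.81), and without iOB replicate 1 (0.83) or 3 (0.90).

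The ratio of Egr3 to Egr1 counts was 0.0270, 0.0293 and 0.0481 in iOB replicates 1 to 3, and 0.0803, 0.0764 and 0.0915 in calvarial-OB, which did not overlap. In fibroblasts it was 0.0235, 0.0103 and 0.0348, a range that overlapped iOB. The ratio of Egr2 to Egr1 counts was 0.0419, 0.0611 and 0.0691 in iOB, against 0.196, 0.0914 and 0.130 in calvarial-OB. In every iOB library, both ratios were below those of all calvarial-OB libraries, without correction for length.

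For Fos, Fosb, Jun, Junb, Jund and Egr1 no difference between iOB and calvarial-OB passed the threshold, and the intervals were wide. The log2 difference of Fos was 0.03, with a 95% interval of -1.30 to 1.36, and that of Fosb 0.71, with an interval of -1.19 to 2.6. Jun had an interval of -0.74 to 0.85, Junb of -1.21 to 0.72, Jund of -1.06 to 0.25 and Egr1 of -1.13 to 0.72. These intervals leave room for differences of more than 1.5-fold in these 6 genes. Without calvarial-OB replicate 1, Fosb (2.29, edgeR adjusted p = 0.023), Jun (0.84, adjusted p = 0.0025) and Junb (0.82, adjusted p = 0.0018) were called higher in iOB together with Fosl1 and Fosl2, 5 genes in all.

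**Figure D2:**
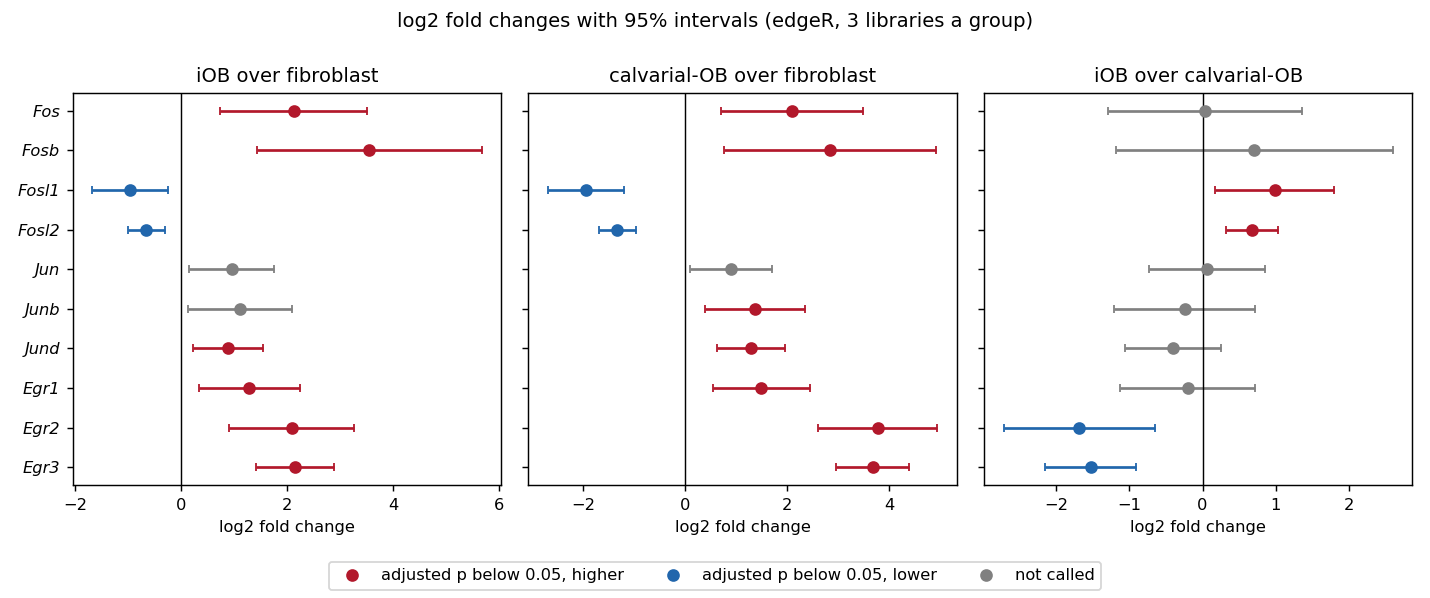
Log2 fold changes of the 10 genes from edgeR for iOB over fibroblast, calvarial-OB over fibroblast and iOB over calvarial-OB, 3 libraries a group; bars are 95% intervals and colours mark the calls. Fosl1 and Fosl2 lie below 0 in both comparisons with fibroblasts, and in iOB over calvarial-OB the bars of 6 genes cross 0.

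Libraries within a group differed in a direction that most of the 10 genes shared. In iOB, replicate 2 was highest for 6 genes and replicate 3 lowest for 8, where 30.9% and 31.9% of all tested genes were. Egr3 went the other way in iOB, highest in replicate 3 and lowest in replicate 2. In calvarial-OB, replicate 1 had the highest level of all 10 genes, where 36.6% of all tested genes were highest in that library. It was also highest for 23 of 26 other immediate early genes. In fibroblasts, replicate 3 had the lowest level of 8 genes (all but Fosl1 and Fosl2), where 33.8% of all tested genes were lowest. Fibroblast replicate 2 had the highest level of 6 genes, Fos, Fosb, Jun, Junb, Jund and Egr1, and of 16 of the 26 other immediate early genes. Of all tested genes, 28.9% were highest in that library.

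Some summed markers differed between the same libraries. In calvarial-OB, the macrophage markers summed to 7246, 3915 and 4531 CPM in replicates 1 to 3. The heat shock genes summed to 4202, 5389 and 5589 CPM in the same order, lowest in replicate 1. This sum leans on its most abundant genes and is no direct measure of stress. In the authors' deposited table for iOB, the average normalized count of Hspa8 was 12815, against 244 for Hspa1a. In fibroblasts the heat shock sum was 5500, 5837 and 6255 CPM and the macrophage sum 92.7, 60.9 and 46.0 CPM. Counts of the ribosomal RNA gene Rn45s made up 5.08% to 5.48% of the iOB libraries, 5.10% to 5.77% of the calvarial-OB libraries and 2.27%, 8.39% and 10.9% of fibroblast replicates 1 to 3. The part of any of these in the library order of AP-1 and Egr genes was not tested.

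Within a group, Fosb, Fos and Egr1 spread more widely than Fosl2. In iOB, the ratio of the highest to the lowest library was 1.88 for Fosb, 1.70 for Fos and 1.69 for Egr1, and the median over all tested genes was 1.20. In calvarial-OB it was 14.8 for Fosb, 4.32 for Fos and 2.38 for Egr1, with a median of 1.38. In fibroblasts it was 17.2 for Fosb, 8.13 for Fos and 4.0 for Egr1, with a median of 1.19. For Fosl2 the ratio was 1.14 in iOB, 1.60 in calvarial-OB and 1.02 in fibroblasts. The ratio of Fosb to Fos counts was 0.791, 0.749 and 0.676 in iOB, 0.631, 0.185 and 0.273 in calvarial-OB and 0.226, 0.319 and 0.151 in fibroblasts. The ratio was higher in each iOB library than in the other 6 libraries.

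**Figure D3:**
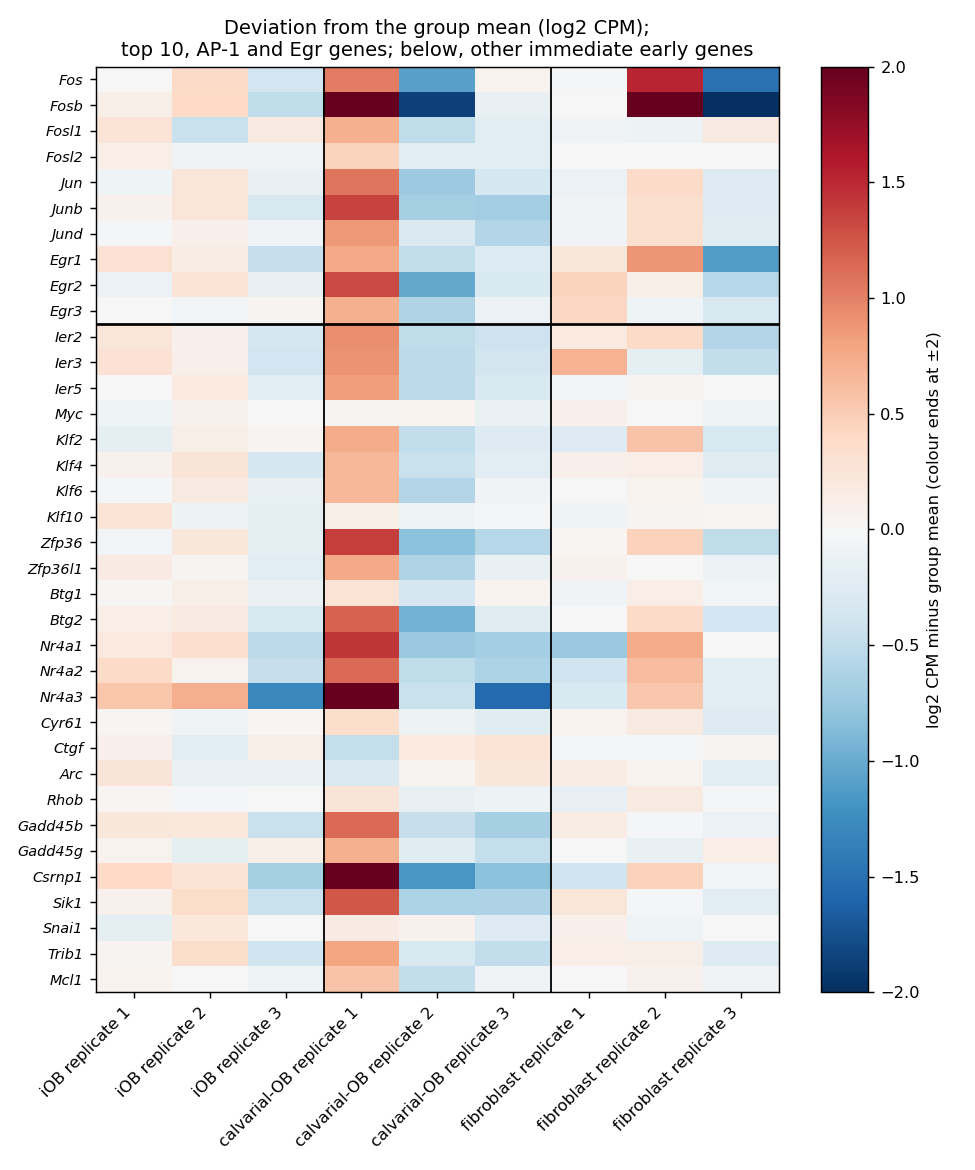
Deviation of log2 CPM from the mean of the library's own group for the 10 AP-1 and Egr genes (above the line) and 26 other immediate early genes (below), with colours ending at 2 log2 units either way. The column of calvarial-OB replicate 1 is high for all 10 genes, and Fos and Fosb stand 1.5 and 2.02 below their group mean in fibroblast replicate 3.

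Likeness of pattern was measured by Pearson's r of log2 CPM over the 9 libraries, which fall into 3 groups, so that r holds group differences as well as the shared library order. Among 6719 genes at or above the median level, those most like Fos were Fosb (0.97), Egr1 (0.97) and Arid4a (0.97). Junb was most like Jun (0.97), followed by Sik1 (0.95), an immediate early kinase gene. Those most like Egr1 were Fos (0.97), Arid4a (0.96) and Ccnl1 (0.92). Without Fosl1 and Fosl2, the 28 pairs among the other 8 genes had r between 0.63 and 0.98. All 16 pairs of one of these 8 with Fosl1 or Fosl2 had a negative r, between -0.85 and -0.20.

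In sorted iOB GFP+ cells, the authors' deposited table gave 8 of the 10 genes as higher than in fibroblasts and 1 as lower at an adjusted p below 0.05, against 23.7% and 21.7% of the genes in that table with an adjusted p. The authors' deposited table for unsorted iOB gave 4 as higher and 2 as lower, against 19.9% and 15% of its genes. Both tables are set against fibroblasts, so their values stand side by side here without a test of the difference. The 2 tables need not share a scale either. For the 8 adipocyte markers in unsorted iOB, the deposited median log2 fold change was 2.06, against 4.62 by edgeR. Levels per library were not used for iOB GFP+, and sorting itself cannot be told apart from the choice of cells with an active collagen reporter.

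In the authors' deposited tables, Jund had a log2 fold change of 2.06 ± 0.15 (SE; adjusted p = 1.3e-42) in iOB GFP+ and 0.85 ± 0.38 (adjusted p = 0.072) in unsorted iOB. Jun was at 1.46 ± 0.20 (adjusted p = 2.0e-12) in the deposited table for iOB GFP+ and 0.88 ± 0.45 (adjusted p = 0.12) in that for iOB, and Junb at 1.74 ± 0.23 (adjusted p = 2.1e-13) and 0.99 ± 0.52 (adjusted p = 0.14) in the same order. All 3 Jun genes thus passed the threshold in the sorted cells and none of them in the authors' deposited table for unsorted cells. With edgeR on the iOB and fibroblast libraries alone, all 3 were called higher in unsorted iOB too. The calls in unsorted cells thus depended on the fit, and the contrast in calls is no test of sorting.

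Fos had a deposited log2 fold change of 2.47 ± 0.62 (authors' adjusted p = 2.4e-04) in iOB GFP+ and 1.66 ± 0.64 (authors' adjusted p = 0.029) in iOB. For Fosb the authors' deposited table gave 3.55 ± 0.73 (adjusted p = 6.1e-06) in iOB GFP+ and 2.20 ± 0.75 (adjusted p = 0.012) in iOB. By edgeR the values in unsorted iOB were larger than the deposited ones, 2.12 for Fos and 3.55 for Fosb. The larger deposited values in iOB GFP+ thus show no difference between sorted and unsorted cells. Fosl1 was lower in both of the authors' deposited tables, at -1.74 ± 0.69 (adjusted p = 0.029) in iOB GFP+ and -0.89 ± 0.37 (adjusted p = 0.044) in iOB. Fosl2 was lower in the authors' deposited table for iOB, at -0.63 ± 0.17 (adjusted p = 0.0016), while its value for iOB GFP+ was -0.17 ± 0.19 (adjusted p = 0.51).

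For Egr2 and Egr3 the values of the authors' deposited tables lay within 1 SE of each other. Egr3 was at 2.26 ± 0.29 (authors' adjusted p = 1.4e-13) in iOB GFP+ and 2.08 ± 0.31 (authors' adjusted p = 2.0e-10) in iOB. Egr2 was at 1.66 ± 0.40 (authors' adjusted p = 1.2e-04) in iOB GFP+ and 1.76 ± 0.55 (authors' adjusted p = 0.0058) in iOB. Egr1 passed the authors' threshold in iOB GFP+, at 1.64 ± 0.40 (adjusted p = 1.7e-04), and did not in iOB, at 1.15 ± 0.50 (adjusted p = 0.060).

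**Figure D4:**
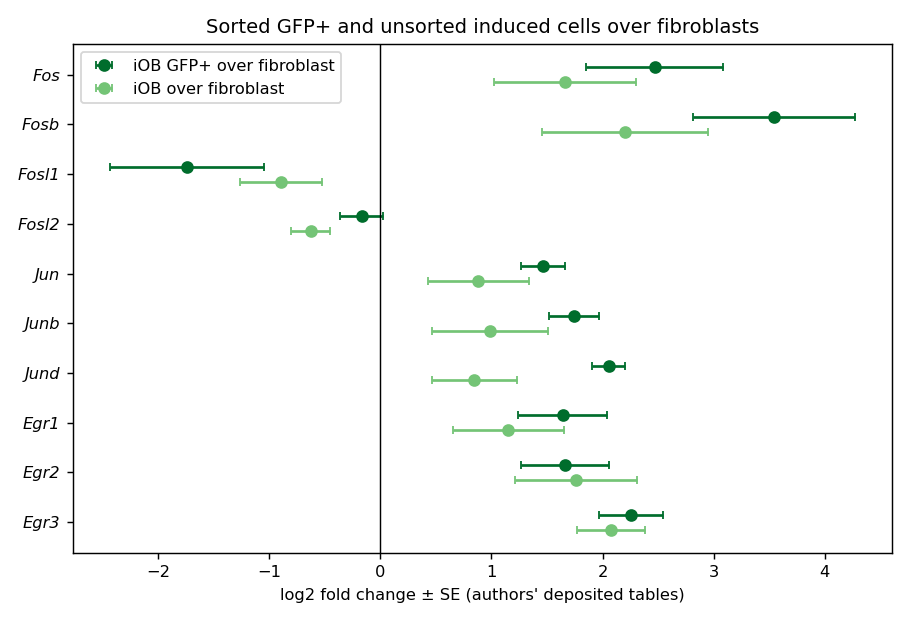
Log2 fold changes over fibroblasts of the 10 genes from the authors' deposited tables, for sorted iOB GFP+ cells (dark) and unsorted iOB (light); bars are the deposited SE. The bars of Jund do not overlap (2.06 ± 0.15 in iOB GFP+ and 0.85 ± 0.38 in iOB), and Fosl2 in iOB GFP+ (-0.17 ± 0.19) touches 0.

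Markers of other cells differed between the same tables. The 18 macrophage markers had a median base mean, the average normalized count over the libraries of a table, of 234 in the authors' deposited table for iOB GFP+ and 791 in that for iOB. These 2 base means cannot be compared as levels, because each table has its own set of libraries and scaling. In the table for iOB, Egr2 had a base mean of 384, above its counts of 51 to 303 in the iOB and fibroblast libraries. The base means there thus appear to include calvarial-OB libraries. Their median deposited log2 fold change was 3.64 in iOB GFP+ and 5.13 in iOB, and in the table for iOB GFP+ 17 of the 18 had no p-value. All 8 osteoblast markers were higher in both of the authors' deposited tables. Of 12 heat shock genes, 1 was higher and 7 lower in iOB GFP+, and 2 were higher and 5 lower in iOB, by the authors' adjusted p. Of all genes with an adjusted p, 23.7% were higher and 21.7% lower in iOB GFP+, and 19.9% and 15% in iOB.

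In the wider pathway, edgeR called 15 of 26 other immediate early genes higher, 2 lower and 9 neither way in iOB over fibroblasts, against 22.7% higher and 20.6% lower among all tested genes, with a median log2 fold change of 0.91. In calvarial-OB over fibroblasts 16 were higher and 1 lower, against 28.4% and 27.4% of all tested genes, with a median of 1.09. The growth factor gene Ctgf changed by 1.70 ± 0.18 log2 units in iOB over fibroblasts (edgeR adjusted p = 1.1e-05) and Klf10, a TGF-beta-induced repressor, 1.29 ± 0.14 (edgeR adjusted p = 1.5e-05). The 2 lower genes were Snai1, a repressor of epithelial genes, at -1.90 ± 0.14 (edgeR adjusted p = 1.2e-06), and Rhob, which encodes a small GTPase, at -0.35 ± 0.13 (edgeR adjusted p = 0.045). Snai1 was also the 1 lower gene in calvarial-OB. Without fibroblast replicate 3, 9 of the 26 were called higher in iOB, and 1 was lower without any 1 of fibroblast replicate 2 or 3, calvarial-OB replicate 2 or 3 or the iOB replicates. Against calvarial-OB, 2 were higher in iOB (Ctgf and Klf10) and 6 lower, where 24.7% and 24.1% of all tested genes were. The lower count is thus near the share of all genes, and 11 were higher without calvarial-OB replicate 1. The authors' deposited table for iOB GFP+ had 20 of the 26 higher and 1 lower, against 23.7% and 21.7% of its genes with an adjusted p.

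Feedback regulators of MAP kinases are transcribed when the pathway is active and then damp it. edgeR called 7 of 14 higher in iOB over fibroblasts (22.7% of all tested genes) and the other 7 neither way, with a median log2 fold change of 0.69. In calvarial-OB over fibroblasts 8 were higher (28.4% of all tested genes), 2 lower (Dusp14 and Spred2) and 4 neither, with a median of 0.71. Spry4, an inhibitor of receptor tyrosine kinase signalling, was at 42.8, 31.2 and 34.5 CPM in iOB, 14.7, 11.6 and 11.5 CPM in calvarial-OB and 6.0, 5.8 and 3.6 CPM in fibroblasts. All 3 groups were apart, with a log2 fold change of 2.83 ± 0.21 in iOB over fibroblasts (edgeR adjusted p = 1.1e-06) and 1.53 ± 0.19 in iOB over calvarial-OB (edgeR adjusted p = 6.0e-05). Dusp6, a MAP kinase phosphatase, had a log2 fold change of 1.48 ± 0.16 in iOB over fibroblasts (edgeR adjusted p = 1.7e-05), and Spry1 2.11 ± 0.26 (edgeR adjusted p = 4.0e-05). Against calvarial-OB, 5 were higher in iOB (Spry4, Dusp14, Spred2, Spred1 and Dusp10) and 2 lower (Dusp7 and Dusp6), and without calvarial-OB replicate 1, 8 were higher. Among all tested genes, 24.7% were higher and 24.1% lower in iOB over calvarial-OB. The authors' deposited table for iOB GFP+ had 11 of 14 higher and 1 lower, against 23.7% and 21.7% of its genes with an adjusted p.

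The upstream kinases carry signals to SRF and its cofactors, which act on immediate early promoters. Of 14 upstream kinase genes in iOB over fibroblasts, edgeR called 1 higher (Mapk14, encoding p38 alpha, 0.42 ± 0.09) and 2 lower (Map2k1, encoding MEK1, -1.15 ± 0.11, and Braf, -0.55 ± 0.10), with a median log2 fold change of -0.16. Among all tested genes, 22.7% were higher and 20.6% lower. In calvarial-OB over fibroblasts 4 of the 14 were higher and 5 lower, against 28.4% and 27.4% of all tested genes, and 2 were higher without any 1 of the fibroblast replicates. The authors' deposited table for iOB GFP+ had 5 higher and 5 lower, against 23.7% and 21.7% of its genes with an adjusted p. Of 7 genes for SRF and its cofactors in iOB over fibroblasts, 1 was higher (Myocd, 3.06 ± 0.53) and 3 lower (Elk3, -0.64 ± 0.11, Mkl1, -0.59 ± 0.13, and Elk4, -0.48 ± 0.14). The shares of all genes just given stand beside the counts of this short list too. Srf itself changed by 0.15 log2 units (edgeR adjusted p = 0.43) in iOB over fibroblasts and was the 1 gene called higher in calvarial-OB over fibroblasts (0.39 ± 0.15, edgeR adjusted p = 0.039), where Elk4, Mkl1, Mkl2 and Elk3 were the 4 lower. That call of Srf was lost without any 1 of the fibroblast replicates, calvarial-OB replicate 1 or 2 or iOB replicate 1. In iOB over calvarial-OB, 4 genes of the SRF list were higher (Elk4, Mkl2, Myocd and Mkl1) and 1 lower (Elk3), where 24.7% and 24.1% of all tested genes were. The call of Elk3 was lost without fibroblast replicate 2 or 3, calvarial-OB replicate 1 or iOB replicate 1 or 3, while 2 of the SRF list were lower without calvarial-OB replicate 3. In the authors' deposited table for iOB GFP+, 4 of the 7 were higher (Myocd, 4.39 ± 0.58, Srf, 0.40 ± 0.11, Elk4, 0.51 ± 0.20, and Elk1, 0.32 ± 0.13) and 2 lower (Elk3, -1.17 ± 0.24, and Mkl1, -0.85 ± 0.15). Elk4 was thus called lower in unsorted iOB by edgeR and higher in the authors' deposited table for the sorted cells.

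Other partners of AP-1 moved in both directions. Of 10 tested genes for leucine zipper partners in iOB over fibroblasts, edgeR called 2 higher (Atf3 and Mafk) and 3 lower (Atf7, Jdp2 and Atf2), with a median log2 fold change of 0.00. These counts are near the shares of all tested genes, 22.7% higher and 20.6% lower. Atf3, a stress-induced partner of Jun, was at 91.2, 106 and 92.8 CPM in iOB, 426, 39.3 and 52.1 CPM in calvarial-OB and 4.1, 5.7 and 4.9 CPM in fibroblasts. Every iOB and calvarial-OB library exceeded all fibroblast libraries, with a log2 fold change of 4.32 ± 0.83 in iOB over fibroblasts (edgeR adjusted p = 0.0013) and 5.15 ± 0.84 in calvarial-OB over fibroblasts (edgeR adjusted p = 2.6e-04). Jdp2, a repressor that pairs with Jun, had a log2 fold change of -0.86 ± 0.12 in iOB over fibroblasts (edgeR adjusted p = 1.0e-04), and Atf7 -1.01 ± 0.13 (edgeR adjusted p = 5.1e-05). In calvarial-OB over fibroblasts 3 were higher (Atf3, Maf and Batf) and 3 lower (Jdp2, Atf7 and Atf2), near the 28.4% and 27.4% of all tested genes. Against calvarial-OB, 3 were higher in iOB (Jdp2, Atf7 and Mafk) and 2 lower (Maf and Mafg), where 24.7% and 24.1% of all tested genes were. Without calvarial-OB replicate 1, 5 were higher and 1 lower. Without fibroblast replicate 2 or any 1 of the iOB replicates, 1 was lower. The authors' deposited table for iOB GFP+ had 5 of 12 higher (Atf3, Mafk, Mafg, Batf3 and Batf) and 2 lower (Jdp2 and Atf7). Of its genes with an adjusted p, 23.7% were higher and 21.7% lower.

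The Egr co-repressors Nab1 and Nab2, which bind Egr proteins and hold their activity in check, were the 2 tested genes of the 4 on their list. Nab2 was at 31.9, 34.9 and 38.3 CPM in iOB, 64.9, 82.5 and 57.0 CPM in calvarial-OB and 70.0, 63.9 and 62.7 CPM in fibroblasts. The iOB libraries lay below all 6 others, and the log2 fold change was -0.90 ± 0.14 in iOB over fibroblasts (edgeR adjusted p = 2.7e-04) and -0.96 ± 0.14 in iOB over calvarial-OB (edgeR adjusted p = 1.7e-04). Nab1 had a log2 fold change of 0.37 ± 0.16 in iOB over fibroblasts (edgeR adjusted p = 0.077) and was called higher in iOB over calvarial-OB (0.52 ± 0.16, edgeR adjusted p = 0.016). In calvarial-OB over fibroblasts Nab2 was at 0.052 (edgeR adjusted p = 0.77) and Nab1 at -0.15 (adjusted p = 0.43). The authors' deposited table for iOB GFP+ had Nab2 lower (-0.55 ± 0.12) and Nab1 higher (0.37 ± 0.10). The edgeR call of Nab1 was lost without iOB replicate 1. On this list, 1 gene was called higher in iOB over fibroblasts without calvarial-OB replicate 1 or 3, and 1 lower in calvarial-OB over fibroblasts without calvarial-OB replicate 3.

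Genes known as AP-1 targets did not move 1 way. Of 19 tested in iOB over fibroblasts, edgeR called 7 higher and 5 lower, against 22.7% and 20.6% of all tested genes. The median log2 fold change was 0.12. In calvarial-OB over fibroblasts 6 were higher and 7 lower, against 28.4% and 27.4% of all tested genes, with a median of 0.06. In iOB over calvarial-OB 7 were higher and 3 lower (Plau, Hmox1 and Vim), against 24.7% and 24.1% of all tested genes. Ezr, which encodes the membrane linker ezrin, had a log2 fold change of 2.23 ± 0.11 in iOB over fibroblasts (edgeR adjusted p = 7.2e-08), and Ccnd1, encoding cyclin D1, 1.93 ± 0.12 (edgeR adjusted p = 2.3e-07). The 5 lower in iOB were Spp1 (osteopontin, -2.21 ± 0.17), Vim, Hmox1, Mmp13 and Ccl2, and 3 were lower without fibroblast replicate 3 or iOB replicate 2 or 3. The authors' deposited table for iOB GFP+ had 7 of 18 with an adjusted p higher and 5 lower, against 23.7% and 21.7% of all its genes with an adjusted p. Mmp13 was among the higher ones (1.65 ± 0.38, authors' adjusted p = 6.7e-05), while Spp1 was at 0.47 ± 0.33 (authors' adjusted p = 0.26). All 4 bone matrix genes tied to Fra-1 and Fra-2 in mouse genetics (Bglap, Mgp, Col1a2 and Col1a1) were called higher in iOB and in calvarial-OB than in fibroblasts, where 22.7% and 28.4% of all tested genes were. Their median log2 fold change was 2.26 in iOB and 2.07 in calvarial-OB. The median hides a wide spread. In the authors' deposited table for iOB, Bglap was at 8.09, Mgp at 3.80, Col1a2 at 0.70 and Col1a1 at 0.67. Fosl1 and Fosl2 were lower in both groups, and a link between them and these 4 genes was not tested. In iOB over calvarial-OB, Mgp was higher and Col1a2 and Col1a1 lower, where 24.7% and 24.1% of all tested genes were. Without fibroblast replicate 3, 2 of the 4 were higher. Bglap has near-identical copies between which reads could have been divided, so its value is uncertain.

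Heat shock genes were counted as a possible sign of stress at harvest. In iOB over fibroblasts edgeR called 2 of 12 higher (Dnajb1, 0.69 ± 0.18, and Hspb1, 0.58 ± 0.16) and 5 lower (Hsp90ab1, -0.88 ± 0.10, Hspe1, -0.79 ± 0.14, Hspa8, Hspd1 and Hsp90aa1), with a median log2 fold change of -0.41, where 22.7% of all tested genes were higher and 20.6% lower. Of the 12, 2 were lower without fibroblast replicate 3 or iOB replicate 3, and 3 without fibroblast replicate 2. In calvarial-OB over fibroblasts 1 was higher (Dnajb1) and 3 lower (Hsp90ab1, Hspb1 and Hsph1), with a median of -0.14, where 28.4% of all tested genes were higher and 27.4% lower, and 1 was lower without fibroblast replicate 3 or calvarial-OB replicate 2. Against calvarial-OB, 2 were higher in iOB (Hspb1 and Hsph1) and 3 lower (Hspe1, Hsp90ab1 and Hspa8), and 5 were lower without calvarial-OB replicate 1. The main counts are near the shares of all tested genes, 24.7% higher and 24.1% lower.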

How the data were processed

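The authors deposited whole-number counts per gene symbol for 9 RNA libraries; the counting tool and its strand setting are not given in the sources used here, so overlapping genes cannot be told apart. Bowtie2, STAR 2.4.2a, R 3.2.2, DESeq2 and the build mm9 are named, without their roles, in the submitters' processing notes. Per the file headers, the authors' deposited tables hold a base mean (a normalized signal), a log2 fold change with its SE, a test statistic (a score), and p-values before and after adjustment. Counts were fitted with edgeR 4.0.16 (R 4.3.3): TMM, filterByExpr, glmQLFit with group as the only term over 3 groups, and glmQLFTest with Benjamini-Hochberg adjustment over 13438 genes; genes under 0.05 were called. The common biological coefficient of variation was 14.8%. The SE is the absolute log2 fold change divided by the square root of F. log2 CPM used a prior count of 2. The test was also run on simulated counts with the same spread for every gene, which does not cover genes as variable as Fos and Fosb. DESeq2 1.42.0, other normalizations, no filter, a replicate block and leaving out libraries were alternatives. Members, lists and tests were chosen with earlier results of these data known. Named were all members, up to 3 genes per list with the smallest adjusted p in iOB over fibroblasts, genes behind counts of 5 or fewer, and 3 genes most like each of Fos, Junb and Egr1. Methylation windows carry mm9 coordinates without gene names and were not used here. Some results under these rules are not reported here.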

Additional observations from a re-analysis of the deposited data

How the results depend on the processing

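Across 17 alternatives, the 30 log2 fold changes of the 10 genes gave 510 values: 435 kept direction and side of the threshold, 39 lost the call, 21 gained one and 15 changed sign. All sign changes were in iOB over calvarial-OB, in genes not called there. Fos became -0.049 with upper-quartile scaling, -0.068 with the replicate block, and -0.34 to 0.71 with 1 library left out, negative without calvarial-OB replicate 2 or 3 or iOB replicate 2. Jun became -0.022 with upper-quartile scaling and -0.25 to 0.84 with 1 library left out, negative without the same 3 libraries. Junb ranged over -0.57 to 0.82, Jund over -0.66 to 0.21 and Egr1 over -0.42 to 0.32 with 1 library left out, positive without calvarial-OB replicate 1; with fibroblast replicate 3 also left out (chosen after seeing the data) they were 0.82, 0.22 and 0.32. With both left out, 4 genes were higher in calvarial-OB over fibroblasts and 5 in iOB over calvarial-OB. DESeq2 called 1 gene lower and 4 higher in iOB over fibroblasts and 1 higher in iOB over calvarial-OB, where upper-quartile scaling and a fit of only those groups also called 1 higher. Leaving out 1 library gave 3 to 8 genes higher and 1 to 2 lower in iOB over fibroblasts, 4 to 8 higher and 2 lower in calvarial-OB over fibroblasts, and 1 to 5 higher and 2 lower in iOB over calvarial-OB. Counts over all tested genes stayed within 1.5 times. The cause of these shifts was not tested. Same-numbered libraries of different groups correlated between -0.15 and 0.15 in 9 pairs, 2 of them over 0.1. Differently numbered libraries were not set beside them, so whether the numbers pair libraries is unknown. The replicate block gave 8 genes higher and 2 lower in iOB over fibroblasts, 7 and 2 in calvarial-OB over fibroblasts and 2 and 2 in iOB over calvarial-OB. Depth limits Fosl1, which had 7 to 73 counts a library.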
